A study of Mus musculus with 12 samples.

Results

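Transcripts of the proteasome were examined in the liver and the quadriceps of C57BL/6 mice, 4 weeks old, whose mothers had received taurine or no taurine during pregnancy. Genes were taken by symbol (Psma, Psmb, Psmc, Psmd, Psme, Psmf or Psmg followed by a number), and 49 matched among the 18193 genes that had a probe set assigned to a single symbol. Of these, 47 encode proteasome proteins. They comprised 7 alpha and 7 beta subunits of the core, 3 immunoproteasome subunits, 6 ATPase and 11 non-ATPase subunits of the 19S regulatory particle, 3 core activators, 1 core inhibitor, 4 assembly factors of the core and 3 of the 19S particle, besides Psma8 of the testis and Psmb11 of the thymus. The other 2, Psmc3ip (a meiotic recombination factor) and Psme3ip1 (a partner of Psme3), are not proteasome subunits and were left out of all counts. Each gene was represented by the brightest of its probe sets in the tissue, and 46 proteasome genes in liver and 45 in muscle lay above the limit for dim probe sets, a log2 level of 4.60 in liver and 4.49 in muscle. Psma8 was below it in both tissues, at 3.92 to 4.35 in liver and 3.65 to 4.07 in muscle, and Psmb11 was below it in muscle, at 3.79 to 4.28. The activator subunit Psme2 is measured by a probe set that carries more than 1 gene symbol and was not analysed here.

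The proteasome is the barrel-shaped protease that degrades ubiquitin-tagged proteins. Its core is a stack of rings of alpha and beta subunits, with the proteolytic sites on the inner faces of Psmb5, Psmb6 and Psmb7, and the 19S particle binds, unfolds and feeds the substrate. Interferon and immune cells favor the replacement of these catalytic subunits by Psmb8, Psmb9 and Psmb10, which changes the peptides available for class I antigen presentation. When the proteasome is impaired, the transcription factor Nfe2l1 raises the subunit genes together, and in skeletal muscle the ubiquitin-proteasome route is a main way of breaking down myofibrillar protein.

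The dams were fed a normal protein diet with 20% casein and drank plain water (NP) or water with 1% taurine (NP+tau) from the first day of pregnancy, and 3 samples of either diet were measured in each tissue. By the study's methods every pup had a different dam and gave both tissues, although the labels do not tie the replicate numbers of the tissues to each other. All values are log2 expression values from the authors' RMA normalization, which was done in each tissue apart, so that levels are compared neither between tissues nor between genes. Differences are NP+tau minus NP, with the standard error (SE) and p from limma and adjustment by Benjamini-Hochberg over the 29274 probe sets kept in a tissue. With 6 arrays in a tissue, the precision of every difference is low.

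Several arrays stood apart from the rest. The liver array of NP+tau replicate 1 deviated from the median array by a mean of 0.433 on the log2 scale, compared with 0.104 to 0.227 in the other 5 liver arrays. The largest mean deviation in muscle was 0.229, in NP+tau replicate 2, close to the upper end of the other muscle arrays (0.109 to 0.218). Xist, which is expressed in females, was at 11.6 to 11.8 in NP livers and at 11.1, 5.96 and 5.07 in NP+tau livers, whereas the Y-linked Eif2s3y was raised in the same NP+tau replicates 2 and 3 only. The muscles of each replicate number matched the livers in this. By these transcripts every NP sample and NP+tau replicate 1 were female, and NP+tau replicates 2 and 3 were male. The study's methods describe groups that held both sexes, and the labels do not give the sex. Differences by diet and by sex can therefore not be fully told apart here. Markers of other cell types also differed between arrays. In muscle NP+tau replicate 3, the mean log2 level of 13 lymphocyte markers was 7.20 (4.67 to 5.14 in the other arrays) and that of 7 class II antigen presentation markers was 7.91 (5.33 to 6.04). In liver, the mean level of 19 macrophage markers ranged from 8.49 to 9.65 with NP and from 7.22 to 8.07 with NP+tau. Hepatocyte markers in liver (14.0 to 14.3) and muscle fiber markers in muscle (14.4 to 14.5) were high on every array of their tissue. In bulk tissue, fewer cells of a type and less RNA per cell cannot be told apart.

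In muscle, transcripts of the core and the 19S particle were higher in 1 sample, NP+tau replicate 2, than in the other 5. All 31 core and 19S subunits were highest in that sample. Their levels there lay a median of 1.17 above the median of the other 5 samples on the log2 scale, a 2.25-fold higher level, with a range over the subunits of 0.32 to 1.73. Counting all 45 proteasome genes, 36 were highest in this sample, or 80%, compared with 23.4% of all genes. No gene of the 45 passed an adjusted p of 0.05 for NP+tau against NP (lowest adjusted p = 0.707, limma with Benjamini-Hochberg), and 0% of the probe sets did so in this tissue. At an unadjusted p under 0.05, 1 proteasome gene was higher (4.24% of all genes) and 1 was lower (2.08% of all genes).

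**Figure D1:**
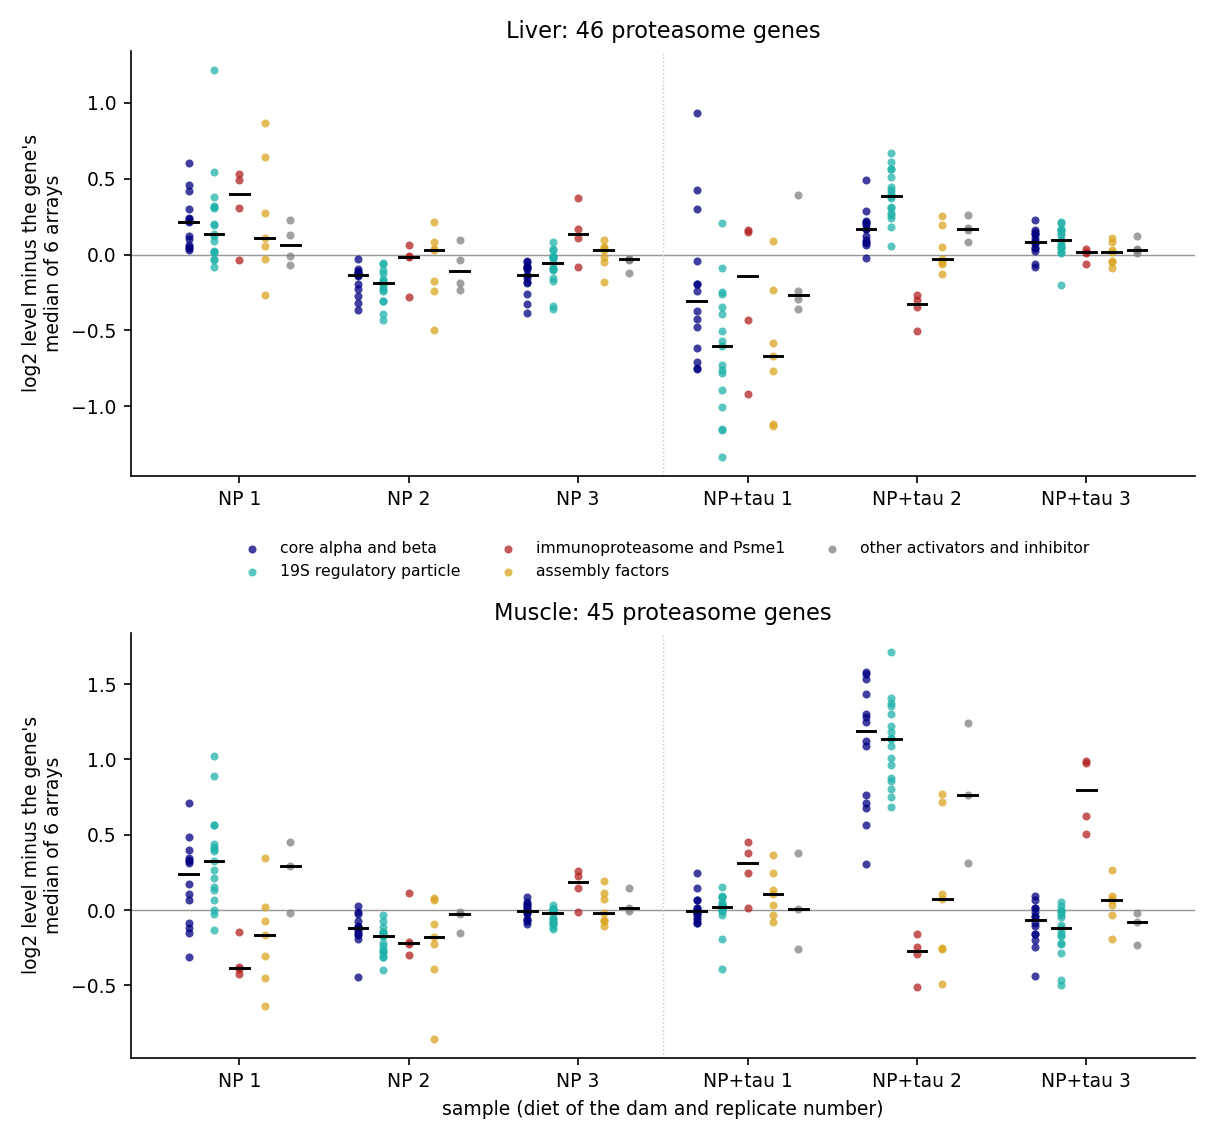
Log2 level of each proteasome gene minus its median over the 6 arrays of the tissue, with liver above (46 genes) and muscle below (45 genes). Points are genes, colors are classes and black bars are class medians. In muscle the blue and green points of NP+tau replicate 2 all lie above 0, whereas the red points, Psmb8, Psmb9, Psmb10 and Psme1, lie below it. In liver the points of NP+tau replicate 1 are the most scattered and mostly below 0.

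The alpha subunits form the outer rings that gate the core. Psma1 had the largest difference of all proteasome genes in muscle, with log2 levels of 9.56, 9.42 and 9.78 in NP and 10.02, 11.45 and 9.96 in NP+tau samples, a difference of 0.89 (SE 0.40, adjusted p = 0.707). All 3 NP+tau values of Psma1 lay above the NP values, and the difference was 0.40 (SE 0.17) without NP+tau replicate 2. Psma3 was also without overlap, at 12.06, 12.07 and 12.16 against 12.19, 12.48 and 12.19, but the gap between the groups was small. For the other 5 subunits the groups overlapped. Psma5, for example, was at 10.89, 10.60 and 10.71 in NP and at 10.70, 12.29 and 10.73 in NP+tau samples, so that only 1 of the NP+tau values was outside the range of NP.

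Among the beta subunits, Psmb5, which carries the chymotrypsin-like site, was at 10.66, 10.68 and 10.82 in NP and at 11.06, 11.94 and 10.80 in NP+tau samples, a difference of 0.54 (SE 0.29, adjusted p = 0.707). Without NP+tau replicate 2 the difference of Psmb5 was 0.21 (SE 0.16). Psmb6 and Psmb7, which carry the other proteolytic sites, differed by 0.25 (SE 0.19) and 0.20 (SE 0.24). All 7 beta subunits were above 0, from 0.11 to 0.54, and for each of them the groups overlapped.

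The 6 ATPases of the 19S base, the ring of motors that unfolds substrates, differed by 0.17 to 0.50. Psmc5 was at 10.66, 10.42 and 10.56 in NP and at 10.72, 11.70 and 10.71 in NP+tau samples, with a difference of 0.50 (SE 0.28, adjusted p = 0.708), and its groups did not overlap. Outside replicate 2, the NP+tau values of Psmc5 exceeded the highest NP value by little, and without that sample the difference was 0.17 (SE 0.15). Of the 11 non-ATPase subunits, 10 were above 0. The largest difference was that of Psmd13, a scaffold subunit of the lid, at 9.41, 9.17 and 9.30 against 9.45, 10.50 and 9.41 (0.49, SE 0.30, adjusted p = 0.708). Psmd14, the deubiquitinase that removes ubiquitin chains at the entry to the core, was at 10.44, 10.46 and 10.58 against 10.72, 11.43 and 10.56, a difference of 0.41 (SE 0.24, adjusted p = 0.708). The subunit furthest above the other samples in NP+tau replicate 2 was the ubiquitin receptor Psmd4, at 11.71, 10.65 and 10.80 in NP and at 10.84, 12.54 and 10.60 in NP+tau samples. Psmd4 in that sample was 1.73 above the median of the other 5, but its difference between the diets was 0.27 with an SE of 0.54, since NP replicate 1 was high too. Psmd8 was the one subunit below 0 (-0.10, SE 0.52), again with its second-highest value in NP replicate 1 (11.97).

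The regulators and assembly factors followed the subunits only in part. The activators Psme3 and Psme4 were highest in NP+tau replicate 2. Psme3, the nuclear activator, was at 8.30, 8.29 and 8.33 in NP and at 8.70, 9.08 and 8.30 in NP+tau samples (difference 0.39, SE 0.21, adjusted p = 0.707), and Psme4 was 1.25 above the median of the other 5 samples. The interferon-inducible activator Psme1, in contrast, was at 8.36, 8.30 and 8.65 in NP and at 8.96, 8.0 and 9.13 in NP+tau samples, so that its lowest value was in the sample in which the core subunits peaked. The inhibitor Psmf1 differed by -0.21 (SE 0.23), with 8.02, 7.42 and 7.72 in NP and 7.31, 7.88 and 7.34 in NP+tau samples. Among the chaperones that assemble the core, Psmg1 (7.72), Psmg2 (7.90) and Psmg4 (7.63) had their lowest level in NP+tau replicate 2, whereas Psmg3, at 7.40, 8.11 and 7.94 against 8.0, 8.81 and 8.07, was highest there (difference 0.48, SE 0.28, adjusted p = 0.708). Psmg4 was the gene with an unadjusted p under 0.05 in the lower direction. It was at 8.24, 7.97 and 8.0 in NP and at 7.81, 7.63 and 7.70 in NP+tau samples, without overlap, and differed by -0.36 (SE 0.14, adjusted p = 0.707).

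The chaperones of the 19S base were above 0 as well. Psmd10, also known as gankyrin, was at 6.19, 5.79 and 6.57 in NP and at 6.78, 6.72 and 6.72 in NP+tau samples, a difference of 0.55 (SE 0.21, adjusted p = 0.707). The NP+tau values of Psmd10 were close to each other, and the difference was 0.56 (SE 0.24) without replicate 2, so that this gene did not share the pattern of the subunits. Psmd9 was at 7.30, 6.99 and 7.31 against 7.48, 7.49 and 7.44, a difference of 0.27 (SE 0.15, adjusted p = 0.707), without overlap. Psmd5 differed by 0.33 (SE 0.23), with its highest level, 8.59, in replicate 2. In total, 6 proteasome genes (Psma1, Psma3, Psmc5, Psmd13, Psmd9 and Psmd10) had all NP+tau values above the NP values, Psmd13 by less than the decimals given, where 8.44% of all genes did, and 1 (Psmg4) had them below, where 7.25% did.

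Of the 45 genes, 42 differed by more than 0, compared with 54.6% of all genes, and the median difference was 0.27 compared with 0.03 over all genes. This rested on NP+tau replicate 2. Without it the median was -0.05, and 20 genes were above and 25 below 0. The core and 19S subunits then split into 9 above and 22 below 0, with a median of -0.07. NP replicate 1 was the second sample with raised subunits, a median of 0.35 above the other 5 (range -0.40 to 1.06), and the median difference was 0.37 without it.

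**Figure D2:**
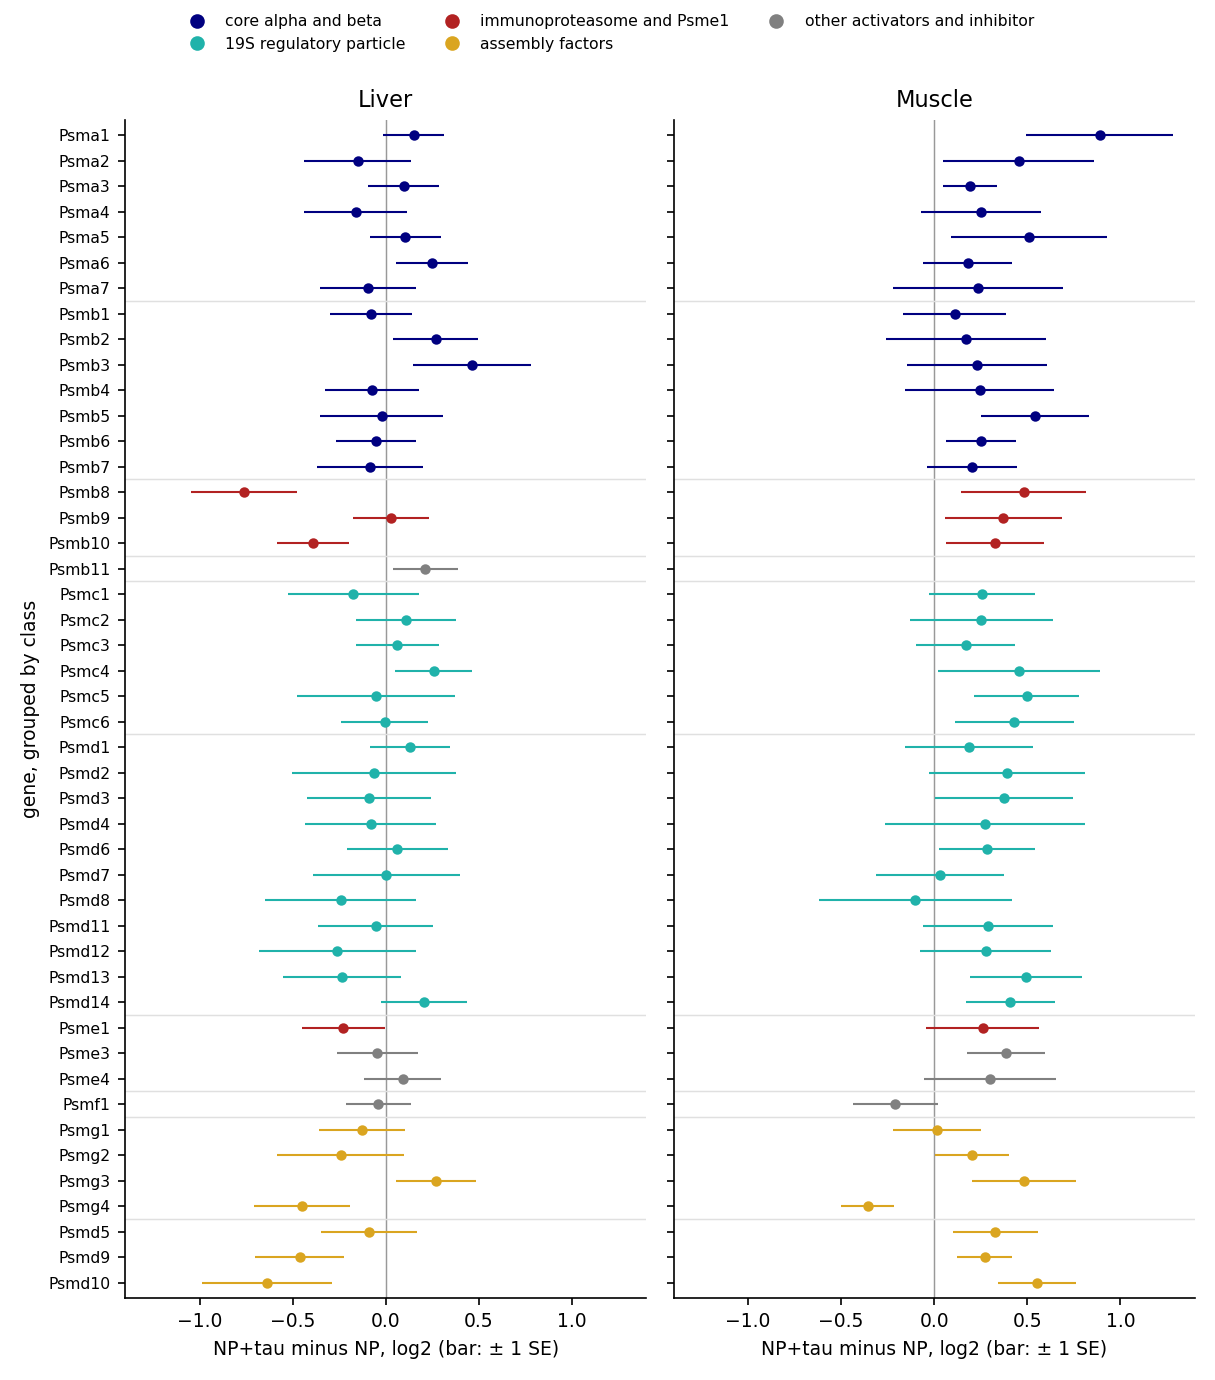
Difference between NP+tau and NP for each proteasome gene above the limit for dim probe sets, in liver (left) and muscle (right), on the log2 scale, with bars of 1 SE on either side from limma (3 samples a group). Lines part the classes. Most points in muscle lie to the right of 0 with wide bars, Psmb8 and Psmd10 lie furthest to the left in liver, and no gene passed an adjusted p of 0.05 in either tissue.

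The high level of the subunits in muscle NP+tau replicate 2 did not depend on the probe set taken. The genes of 16 core and 19S subunits had 28 further probe sets above the limit, and 23 of these were highest in the same sample, with a median of 0.90 above the other 5. Of the 31 subunits, 20 lay further above the other samples than the 95th percentile of all genes in that array. The control probe sets at the 3' and 5' ends of Gapdh differed by -0.11 to 0.05 over the muscle arrays and by -0.03 in this sample, and those of actin by -0.05 to 0.37, with 0.13 in this sample. The normalization sets the arrays of a tissue to 1 distribution, so that these values are relative to the other genes of the array.

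Genes that work with the proteasome were examined in the same way. Of 22 measured partners, such as shuttle factors, proteasome-bound deubiquitinases and the Vcp segregase with its cofactors, 21 were above 0 in muscle, with a median difference of 0.33, and 20 were highest in NP+tau replicate 2. Their median level in that sample was 0.85 above the other 5. Ufd1, a cofactor of Vcp, was at 8.18, 7.81 and 8.29 in NP and at 8.44, 9.52 and 8.50 in NP+tau samples, and Zfand2a, a stress-induced partner of the proteasome, was at 7.08, 6.84 and 7.23 against 7.39, 9.55 and 7.15. Usp14, the deubiquitinase that trims chains on the 19S particle, reached 9.98 in this sample and 7.82 to 8.48 in the others. Ubqln4, a shuttle factor, was the 1 partner of 22 with an unadjusted p under 0.05 (0.39, SE 0.17, adjusted p = 0.707). Of all genes, 4.24% were higher by that measure, a share near that of the partners.

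Transcripts of 2 transcription factors and of the assembly factor Pomp lay less far above the other samples in NP+tau replicate 2 than the median subunit. Nfe2l1, the activator of subunit genes, was at 10.22, 10.22 and 10.28 in NP and at 10.41, 10.38 and 10.24 in NP+tau samples. Nfe2l2, a related factor of the oxidative stress response, was at 9.11, 8.80 and 8.81 against 8.99, 9.52 and 9.02. Pomp, which completes the core, was at 10.33, 10.54 and 10.59 against 10.74, 10.92 and 10.70, with a difference of 0.30 (SE 0.15). Its groups did not overlap, as in 8.44% of all genes. These are transcript levels, while Nfe2l1 is known to be controlled at the level of the protein.

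Cytosolic chaperones, which refold damaged proteins, were the list closest to the subunits in this sample. All 13 measured chaperones were above 0 in muscle, with a median difference of 0.80. Of these, 5 had an unadjusted p under 0.05 in the higher direction, compared with 4.24% of all genes, and none passed the adjusted threshold. Each of the 13 was highest in NP+tau replicate 2, at a median of 1.37 above the other 5 samples. The stress-induced Hspa1b was at 8.14, 7.72 and 8.56 in NP and at 8.62, 11.67 and 8.96 in NP+tau samples, 3.11 above the median of the others. Hsph1, its nucleotide exchange factor, was at 8.70, 8.56 and 8.90 against 9.45, 10.39 and 9.51, a difference of 1.06 (SE 0.27, adjusted p = 0.707). Dnajb1, a cochaperone, was at 7.01, 7.26 and 7.42 against 7.59, 8.33 and 8.17. Hspa1b, Hsph1 and Dnajb1 were each above all NP samples in every NP+tau sample. Of the 31 core and 19S subunits 4 were so, as were 8.44% of all genes. The count over the 13 chaperones was not determined, so that their share cannot be set beside these.

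Ubiquitin itself and the conjugation enzymes were less raised in NP+tau replicate 2, with a median of 0.21 above the other samples over 12 genes, and 4 of them were highest there. The muscle ubiquitin ligases and FoxO factors lay at a median of 0.82 above the other samples there, with 10 of 13 genes above 0 and 5 highest. Over the diets, 6 of the 13 were above 0, with a median difference of -0.29. Fbxo32 (atrogin), the ligase of the atrophy program, was at 13.08, 10.23 and 7.68 in NP and at 8.77, 12.23 and 8.52 in NP+tau samples, so that NP replicate 1 and NP+tau replicate 2 were both high. Trim63 (MuRF), its companion ligase, was at 12.58, 10.72 and 10.23 against 10.53, 11.35 and 10.25, highest in NP replicate 1. The differences between the diets, -0.49 (SE 1.49) for Fbxo32 and -0.46 (SE 0.61) for Trim63, were smaller than their errors.

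**Figure D3:**
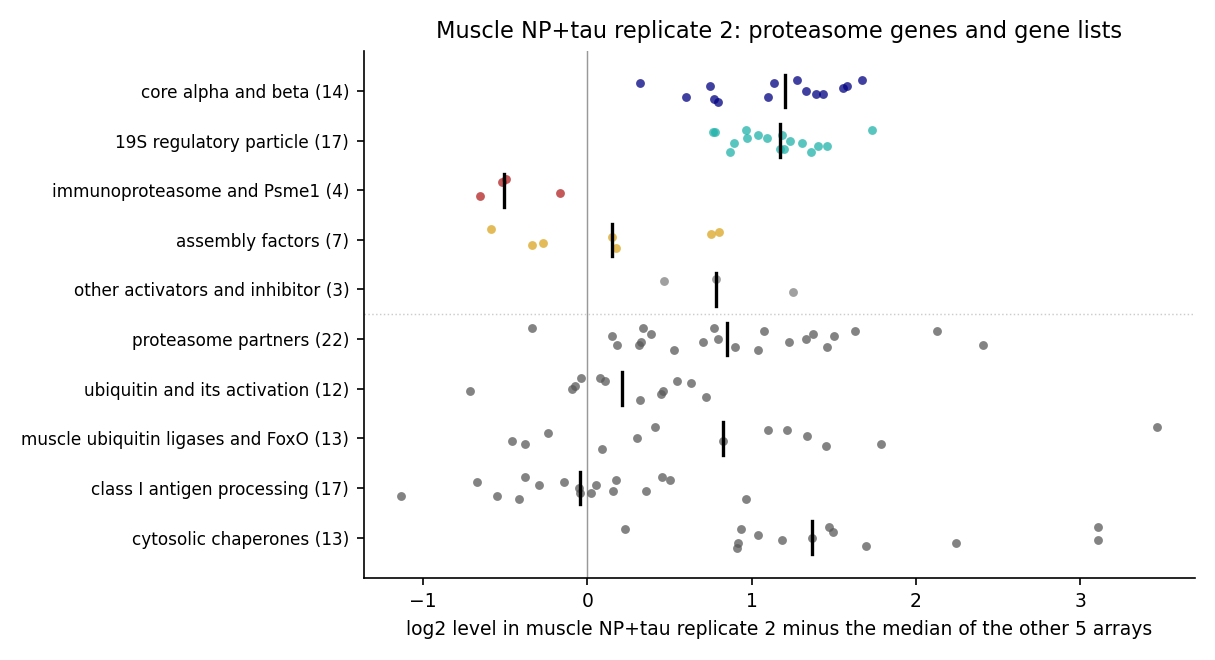
Log2 level in muscle NP+tau replicate 2 minus the median of the other 5 muscle arrays, for proteasome genes by class (colored, above the dotted line) and for genes of the related lists (gray, below it), with the number of genes in brackets. Points are genes and black bars are medians. Core and 19S subunits, proteasome partners, ubiquitin ligases with FoxO factors and cytosolic chaperones lie mostly to the right of 0, and the immunoproteasome subunits and Psme1 to the left.

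The immunoproteasome subunits in muscle were highest in another sample, NP+tau replicate 3. Psmb8, which replaces Psmb5, was at 6.31, 6.44 and 7.00 in NP and at 6.98, 6.49 and 7.71 in NP+tau samples, a difference of 0.48 (SE 0.34, adjusted p = 0.712). Psmb9, which replaces Psmb6, was at 5.57, 6.06 and 5.94 against 5.96, 5.79 and 6.93 (0.37, SE 0.32, adjusted p = 0.733). Psmb10, which replaces Psmb7, was at 6.45, 6.62 and 7.06 against 7.22, 6.55 and 7.35 (0.33, SE 0.26, adjusted p = 0.725). The groups overlapped for each of the 3 genes. Together with Psme1 they lay a median of 0.88 above the other samples in replicate 3, and at a median of -0.51 relative to the others in replicate 2. The lymphocyte and class II markers given above were highest in the same replicate 3, at a median of 2.40 and 3.08 above the gene medians. The mean level of the erythroid markers was highest there as well (8.04). Macrophage and neutrophil markers were instead highest in NP replicate 3, at 6.60 and 9.30, compared with 6.51 and 7.79 in NP+tau replicate 3. The part of these cells in the level of the immunoproteasome genes was not tested. Of 17 genes of class I antigen processing, 9 were highest in NP+tau replicate 3, and the share of all genes highest in it was not determined. The 17 genes lay a median of 0.43 above the other samples in that array, compared with 0.02 over all genes.

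Without NP+tau replicate 2, the 3 subunits and Psme1 differed by 0.57 to 0.77 with a median of 0.60, and without replicate 3 the difference was 0.16 for Psmb8, 0.02 for Psmb9, 0.17 for Psmb10 and 0.04 for Psme1. Both of these samples therefore weighed on the diet difference, in opposite directions.

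**Figure D4:**
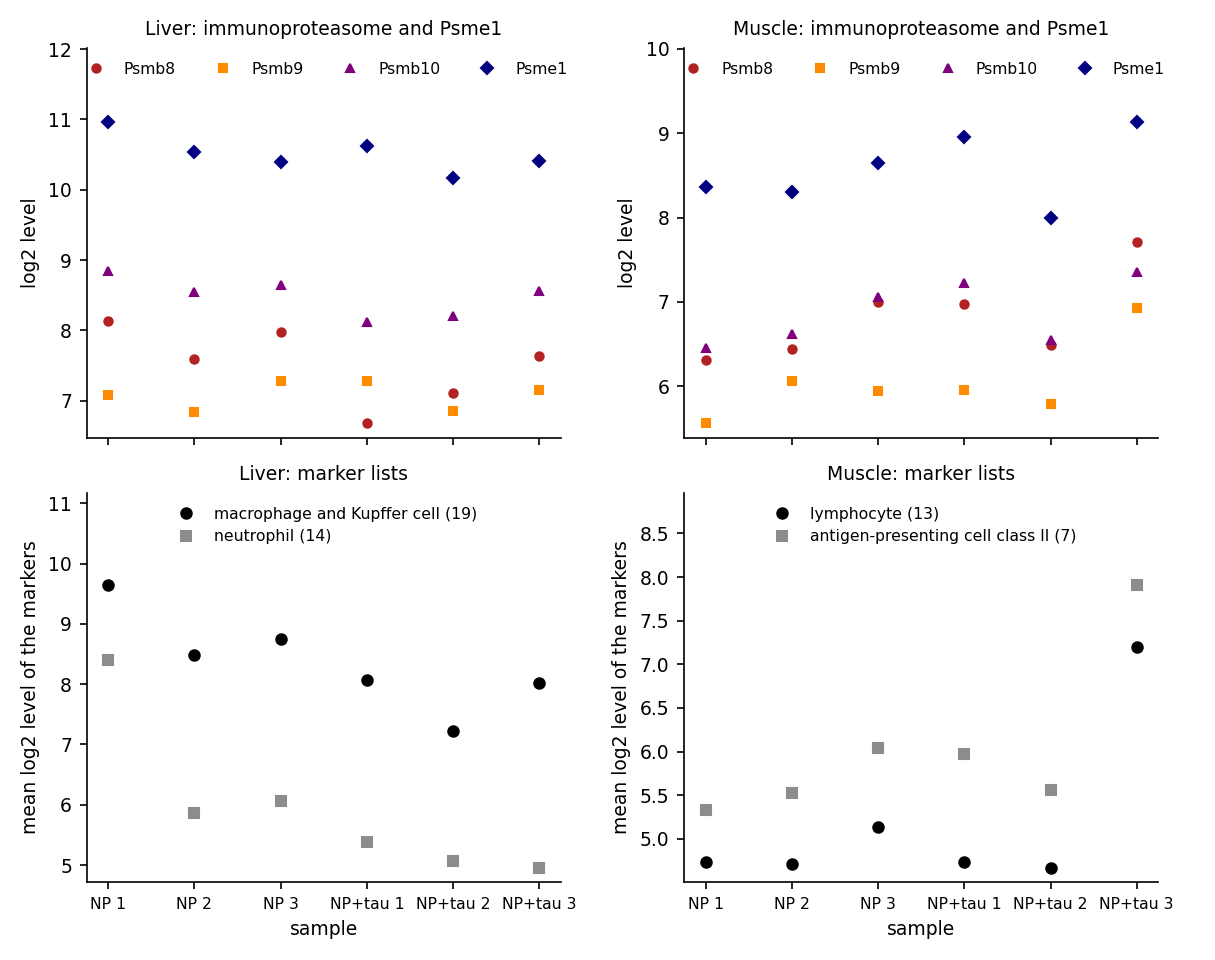
Log2 levels of Psmb8, Psmb9, Psmb10 and Psme1 in each sample (upper row) and the mean log2 level of marker lists of immune cells in the same samples (lower row, number of markers in brackets), for liver (left) and muscle (right). In muscle NP+tau replicate 3, where the 4 genes are highest, both marker lists shown are highest. The macrophage and neutrophil markers of muscle, highest in NP replicate 3, are not shown. In liver the macrophage and the neutrophil markers lie lower in all 3 NP+tau samples than in the NP samples, and both are highest in NP replicate 1.

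In liver, proteasome genes showed no common shift between the diets, with 17 of the 46 genes above 0, compared with 46.5% of all genes, and a median difference of -0.05 (all genes -0.03). No gene passed an adjusted p of 0.05 (lowest 0.718, limma with Benjamini-Hochberg), nor did any other probe set (0%). At an unadjusted p under 0.05, 0 proteasome genes were higher (0.827% of all genes) and 1, Psmb8, was lower (4.31% of all genes). The split depended on the scale. When each array was centred on its own median, which moved the median of all genes from -0.03 to 0.08, 32 genes were above and 14 below 0, with a median of 0.06.

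The liver array of NP+tau replicate 1 weighed most on these values. It had the lowest level of 34 of the 46 genes, where 41.1% of all genes were lowest in it, and its core and 19S subunits lay at a median of -0.52 relative to the other 5 samples. Psmd2, a base subunit that binds substrate shuttles, was at 10.02, 9.78 and 9.75 in NP and at 8.75, 10.57 and 10.04 in NP+tau samples, so that its lowest and highest values were both in the NP+tau group. Not all genes were low on this array. Psmb3, a structural beta subunit, was at 11.21, 10.66 and 10.59 against 11.91, 11.04 and 10.91 and thus highest there, and so were Psma6 (11.61) and Psmb2 (10.08). In this array the muscle fiber markers had a mean level of 5.51, compared with 4.77 to 4.86 in the other liver samples.

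Liver NP+tau replicate 2 was the sample with the highest level of 22 of the 46 genes, where 15.2% of all genes were highest in it. Its core and 19S subunits lay a median of 0.31 above the other 5 samples, a 1.24-fold level, with 15 of 17 subunits of the 19S particle highest. Psmc5 was at 9.16, 8.80 and 9.22 in NP and at 8.03, 9.75 and 9.23 in NP+tau samples, and Psmd11, a lid subunit, was at 11.59, 10.91 and 11.16 against 10.61, 11.62 and 11.27. The chaperones were high in the same liver, at a median of 1.14 above the other samples, and 9 of 13 were highest there. Hspa1b was at 8.82, 8.61 and 10.17 in NP and at 8.30, 12.13 and 10.77 in NP+tau samples. The replicate number is that of the muscle with the raised subunits. The immunoproteasome subunits and Psme1 lay at a median of -0.36 relative to the other samples in this liver.

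Without liver NP+tau replicate 1, the median difference was 0.16, with 38 genes above and 8 below 0, and 30 of the 31 core and 19S subunits were above 0 with a median of 0.22. The largest differences were then those of Psmd7, a partner of Psmd14 in the lid, with 0.47 (SE 0.17), Psmd2 with 0.45 (SE 0.20) and Psmc5 with 0.43 (SE 0.22), and no proteasome gene passed the adjusted threshold.

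Psmb8 was the proteasome gene with the largest difference in liver. It was at 8.14, 7.59 and 7.98 in NP and at 6.69, 7.11 and 7.63 in NP+tau samples, a difference of -0.76 (SE 0.28, adjusted p = 0.718), or 0.590-fold, and the highest NP+tau value overlapped with the lowest NP value. Psmb10 was at 8.85, 8.54 and 8.65 against 8.12, 8.20 and 8.56 (-0.39, SE 0.19, adjusted p = 0.718). Psmb9, which shares its promoter region with the transporter gene Tap1, was at 7.08, 6.84 and 7.28 against 7.28, 6.85 and 7.15 and differed by 0.03 (SE 0.20). Psme1 was at 10.96, 10.53 and 10.39 against 10.62, 10.17 and 10.41 (-0.23, SE 0.22). Without NP+tau replicate 1 all 4 genes were below 0, with a median of -0.32. Psmb8 then differed by -0.54 (SE 0.24), Psme1 by -0.34 (SE 0.21), Psmb10 by -0.30 (SE 0.17) and Psmb9 by -0.06 (SE 0.18).

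Of 17 genes of class I antigen processing in liver, 12 were below 0 with a median of -0.34. The 2 genes with an unadjusted p under 0.05 were Nlrc5, the transactivator of class I and immunoproteasome genes, at 7.12, 6.08 and 6.71 against 5.15, 5.59 and 6.08 (-1.03, SE 0.34, adjusted p = 0.718), and the interferon gamma receptor subunit Ifngr1, at 8.74, 7.88 and 8.21 against 7.52, 7.42 and 7.55 (-0.78, SE 0.25, adjusted p = 0.718). Markers of several other cell types were lower in the same livers. All 19 macrophage markers were below 0, with a median of -1.21. Of these, 13 had an unadjusted p under 0.05, where 4.31% of all genes were lower by that measure. Of the neutrophil markers 12 of 14 were below 0 (median -1.48, 4 with an unadjusted p under 0.05), of the fibroblast and stellate cell markers 8 of 10 (median -0.85, 6) and of the class II markers 6 of 8 (median -0.69, 3). The mean level of each of these lists, and of the endothelial and erythroid markers, was lower in every NP+tau than in every NP liver. The hepatocyte and lymphocyte lists overlapped. Each of the lower lists was highest in NP replicate 1, at 8.40 for the neutrophil markers, against 5.86 and 6.06 in the other NP livers. Psmb8, Psmb10 and Psme1 were highest in that array too. The part of these cells in the level of Psmb8 was not tested.

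Of the related lists in liver, 16 of 22 proteasome partners, 10 of 12 genes of ubiquitin and its activation and 8 of 11 ubiquitin ligases and FoxO factors were below 0, with medians of -0.15, -0.12 and -0.24. In contrast, 11 of 13 chaperones were above 0 with a median of 0.30, compared with 46.5% of all genes above 0. NP+tau replicate 1 was lowest for 17 of the 22 partners, 7 of the 12 ubiquitin genes and 7 of the 11 ligases and FoxO factors. Of all genes, 41.1% were lowest in it. In NP+tau replicates 2 and 3 the partners lay at medians of 0.19 and 0.06 above the gene medians, so that their low values rested on replicate 1. Zfand5, a factor that speeds proteasomal degradation, was the 1 partner of 22 with an unadjusted p under 0.05 (-0.69, SE 0.28, adjusted p = 0.718). Of all genes, 4.31% were lower by that measure, a share near that of the partners. Nfe2l1 was at 7.56, 8.04 and 8.13 in NP and at 7.66, 8.26 and 8.15 in NP+tau livers.

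The assembly factors included the other low genes of the liver. Psmd10 was at 7.45, 6.84 and 6.79 in NP and at 5.68, 6.68 and 6.82 in NP+tau samples, a difference of -0.64 (SE 0.35, adjusted p = 0.718) that was -0.28 (SE 0.23) without NP+tau replicate 1. Psmd9 was at 9.13, 9.07 and 8.91 against 8.09, 8.81 and 8.82, without overlap (-0.46, SE 0.24, adjusted p = 0.718), and the difference was -0.22 (SE 0.13) without NP+tau replicate 1. Psmg4 was at 8.95, 8.16 and 8.13 against 7.84, 8.01 and 8.03, also without overlap (-0.45, SE 0.26, adjusted p = 0.718), and differed by -0.18 (SE 0.18) without NP replicate 1. Psmg3 differed the other way, at 8.44, 7.83 and 8.15 against 8.41, 8.58 and 8.24 (0.27, SE 0.21). In total 2 proteasome genes had all NP+tau values below the NP values, where 9.19% of all genes did, and 1, Psmb11, had them above, where 6.00% did. Psmb11, the thymus subunit, was at 4.25, 4.22 and 4.22 against 4.64, 4.42 and 4.26. It exceeded the limit for dim probe sets in NP+tau replicate 1 only and was thus kept through the group in which it was high, so that its separation is no evidence of a difference.

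Apart from Psmb3, the core and 19S subunits in liver were within 0.27 of 0, of either sign. Psma1, which led in muscle, was at 10.49, 10.30 and 10.26 against 10.40, 10.61 and 10.49 (0.15, SE 0.17), and Psma6 at 11.38, 10.95 and 11.16 against 11.61, 11.29 and 11.34 (0.25, SE 0.19). Psmc4 differed by 0.26 (SE 0.21), Psmd14 by 0.21 (SE 0.23) and the inhibitor Psmf1 by -0.04 (SE 0.17), while Psmb3 had the largest positive difference, 0.47 (SE 0.32, adjusted p = 0.718), which was 0.15 (SE 0.22) without NP+tau replicate 1.

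An interaction term, fitted to the 25622 probe sets kept in both tissues, tested whether the diet difference itself was unequal between liver and muscle. No proteasome gene of 45 passed an adjusted p of 0.05 (lowest 0.542), and 0% of the probe sets did. At an unadjusted p under 0.05 there were 3 proteasome genes, compared with 8.60% of all genes, all higher in muscle than in liver by this contrast. They were Psmb8, with a difference between tissues of 1.24 (SE 0.47), Psmd10 with 1.19 (SE 0.43) and Psmd9 with 0.73 (SE 0.29), followed by Psmb10 with 0.72 (SE 0.34) and Psma1 with 0.74 (SE 0.46), each at an adjusted p of 0.542. Of the 45 genes, 41 had a contrast above 0, where 60.6% of all genes did, with a median of 0.34 against 0.15 over all genes. Without liver NP+tau replicate 1 the count at an unadjusted p under 0.05 was 2, compared with 5.67% of all genes, and without muscle NP+tau replicate 2 it was 5, compared with 8.04%.

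The promoters of the genes were read from RefSeq (mouse build GRCm38.p6) over 250 bases before to 50 bases after the start, and 39 of the 47 genes had an entry, with 41 windows. Each motif was searched on both strands and its share is set beside that in all 32851 windows. The antioxidant response element core TGACNNNGC, bound by Nfe2l1 and Nfe2l2, was in 6 windows (14.6%, all windows 12.4%), those of Psmb5, Psmb6, Psmc6, Psmd9, Psmd12 and Psme4. The ETS motif CCGGAAGT was in 10 windows of 9 genes (24.4%, all windows 3.89%), namely Psma6, Psmc1, Psmc2, Psmd6, Psmd12, Psmd13, Psme3, Psme4 and Psmg3. The CCAAT box was in 14 windows (34.1%, all windows 37.4%), the STAT motif TTCNNNGAA in 3 (7.32%, 8.30%), the interferon-stimulated motif GAAANNGAA in 7 (17.1%, 8.56%), the heat shock motif GAANNTTC in 3 (7.32%, 7.86%) and the E-box CACGTG in 4 (9.76%, 7.15%). Letters alone are a description and do not show that a factor binds.

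The 150 bases before the start are shown for 5 genes on which the results turn, in the direction of transcription, with motif letters on either strand in capitals. Psma1 had the largest muscle difference (CCAAT boxes), Psmb5 is a catalytic subunit raised in muscle NP+tau replicate 2 (antioxidant response element core at -47), Psme4 was highest in the same muscle sample as the subunits (ETS at -53), Psmb8 had the largest liver difference (STAT motif at -97), and Psmd9 was without overlap in opposite directions in the tissues (E-box at -51, antioxidant response element core at -31).
Psma1 (chr7:114276117-114276266, minus strand): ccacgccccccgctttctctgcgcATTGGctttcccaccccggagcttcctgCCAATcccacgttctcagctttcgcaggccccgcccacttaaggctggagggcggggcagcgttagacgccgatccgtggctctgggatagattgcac
Psmb5 (chr14:54617996-54618145, minus strand): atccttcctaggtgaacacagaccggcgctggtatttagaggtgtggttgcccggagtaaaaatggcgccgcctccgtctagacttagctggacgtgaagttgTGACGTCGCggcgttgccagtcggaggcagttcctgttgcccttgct
Psme4 (chr11:30771625-30771774, plus strand): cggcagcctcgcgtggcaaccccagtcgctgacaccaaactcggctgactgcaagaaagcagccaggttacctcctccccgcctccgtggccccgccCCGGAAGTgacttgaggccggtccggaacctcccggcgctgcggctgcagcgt
Psmb8 (chr17:34198045-34198194, plus strand): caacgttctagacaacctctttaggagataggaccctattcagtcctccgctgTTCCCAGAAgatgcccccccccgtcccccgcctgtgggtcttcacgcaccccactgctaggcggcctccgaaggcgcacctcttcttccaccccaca
Psmd9 (chr5:123228040-123228189, plus strand): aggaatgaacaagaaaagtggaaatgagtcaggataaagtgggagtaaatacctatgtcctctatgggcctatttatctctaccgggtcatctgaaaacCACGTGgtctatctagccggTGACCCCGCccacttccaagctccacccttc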

How the data were processed

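The authors hybridized liver and muscle RNA to Affymetrix mouse arrays, and the deposited values are log2 expression values obtained with quantile normalization and RMA in each tissue apart, for 45101 probe sets. Of these, 64 control probe sets were removed, and 1 gene symbol was given for 34958 probe sets, more than 1 for 932 and no symbol for 9211. Dim probe sets were removed by their maximum over the 6 arrays of a tissue, with the 35th percentile of the maxima as the limit. NP+tau was compared with NP using limma 3.58.1 (lmFit and eBayes, R 4.3.3), in each tissue with 3 samples a group, with p adjusted by Benjamini-Hochberg and a threshold of 0.05. The fit was tested on simulated data. Medians and counts over a list are descriptions, given beside all genes and without a test.

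The genes, lists and alternatives were chosen with earlier results of these data known. Genes named in a tissue are the 10 proteasome genes with the smallest unadjusted p, the leading gene of each class and any that opposed its class, the immunoproteasome subunits and Psme1, the 5 leading genes of the interaction and up to 3 genes of each related list. Other genes are named as examples of a class or of an array, chosen after their values were seen. The alternatives were other filters on dim probe sets, an intensity trend, array weights, centred arrays, the Xist level as a covariate, other probe sets of a gene, blocks for the replicate number and the animal, and each sample left out in turn. Newborn samples were not analysed here, and Adrm1 was not analysed either.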

Additional observations from a re-analysis of the deposited data

Results flagged for a closer look

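Psmd9, an assembly chaperone of the 19S particle, was the one proteasome gene whose samples separated by diet in both tissues and in opposite directions. Of all genes, 9.19% had every NP+tau value below the NP values in liver, and 8.44% had them above in muscle. The share of all genes that did both was not determined. Its NP+tau levels lay below all NP levels in liver (8.09, 8.81 and 8.82 against 9.13, 9.07 and 8.91) and above them in muscle (7.48, 7.49 and 7.44 against 7.30, 6.99 and 7.31). The difference between the tissues was 0.73 on the log2 scale (SE 0.29, adjusted p = 0.542 by limma), and thus did not pass the threshold. A second probe set of the gene differed by 0.15 in liver and -0.19 in muscle, opposite in both tissues to the brightest one. That probe set was dim, at mean levels of 5.27 in liver and 5.06 in muscle, compared with 8.81 and 7.34 for the brightest one. Without liver NP+tau replicate 1, the lowest of the liver samples, the liver difference was -0.22 (SE 0.13) in place of -0.46 (SE 0.24).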

How the results depend on the processing

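No proteasome gene passed an adjusted p of 0.05 by limma in either tissue or in the interaction under any filter, the intensity trend, array weights, centred arrays, other probe sets, the animal block or with any 1 sample left out (0 to 0 genes). With the Xist level as a covariate, 10 genes passed in liver, where 9449 of 29274 probe sets did, and 3 in the interaction, where 13.4% of the probe sets did. In that fit the only NP+tau array at the Xist level of NP is replicate 1, the liver array that stood apart. Correlations of deviations between NP and NP+tau samples of the same replicate number ran from -0.11 to 0.11 in liver and from -0.27 to 0.33 in muscle. Those of unlike numbers ran from -0.13 to 0.13 and from -0.28 to 0.40. They gave no sign of a pairing by number but cannot exclude one. With the replicate block 0 genes passed and the medians were -0.05 in liver and 0.27 in muscle. The liver median moved to 0.23 with array weights, -0.53 with the Xist covariate and 0.28 without NP and NP+tau replicate 1. Leaving out 1 sample gave liver medians of -0.18 to 0.16 and muscle medians of -0.05 to 0.48.

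Some named genes changed sign. In liver these were Psmb9 (-0.017) and Psmf1 (0.024) with array weights, Psmf1 (0.074) with centred arrays, Psmd14 (-0.17) and Psme1 (0.0030) with the Xist covariate, Psmg4 (0.15) as the mean of its probe sets, Psmb9 (-0.058) and Psmf1 (0.029) without both replicates 1, and Psma1 (-0.013), Psmd9 (0.15) and Psmg4 (0.75) by their second-brightest probe set. With 1 sample left out, Psmb9 ranged from -0.086 to 0.15 and Psmf1 from -0.10 to 0.061. In muscle they were Psmf1 as the mean (0.15) and by the second-brightest probe set (0.41), and Psmd9 by the latter (-0.19). Several of these second probe sets were dim. In liver that of Psmg4 had a mean level of 4.01, below the limit of 4.60, and was kept through only part of its arrays. Its sign, and that of the mean that includes it, is thus no evidence of a reversal. The second probe sets of Psma1 (5.10) and Psmd9 (5.27) in liver and of Psmd9 (5.06) in muscle were near the limit too. The cause of the sign changes was not tested. Over all proteasome genes, 17 of 41 further probe sets in liver and 9 of 38 in muscle had the opposite sign to the brightest one. They belonged to 12 genes in liver and 7 in muscle. With 6 arrays a tissue, differences below the errors given could not be resolved.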

Other observations

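Other transcripts were high in the muscle of NP+tau replicate 2, in which the proteasome subunits peaked. These genes were chosen after their values were seen. Hmox1, the inducible heme oxygenase, was at 6.91, 5.99 and 6.32 in NP and at 5.88, 9.87 and 5.81 in NP+tau muscles. Srxn1, which repairs oxidized peroxiredoxins, was at 6.98, 6.26 and 6.96 against 6.84, 10.77 and 7.02, and Gclm, a subunit of the enzyme that limits glutathione synthesis, was at 8.98, 8.16 and 8.02 against 8.08, 11.23 and 8.50. For these 3 genes the sample was the highest of the 6. The metallothionein Mt1 was at 12.18, 9.31 and 9.62 against 8.74, 13.09 and 9.24, with NP replicate 1 high as well.

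In liver the same genes did not share this pattern. Hmox1 was highest in NP replicate 1 (10.04), at 8.40 and 8.29 in the other NP and 6.57, 7.48 and 7.25 in the NP+tau livers. Srxn1 was at 10.39, 7.81 and 7.86 against 6.93, 9.05 and 8.05.

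Bone genes differed between the muscle samples. Ibsp, a matrix protein of bone, was at 3.59, 3.31 and 10.99 in NP and at 3.80, 9.58 and 6.23 in NP+tau muscles, and Dmp1, a protein of osteocytes, at 3.78, 3.87 and 10.38 against 4.63, 9.01 and 7.13. Both were thus highest in NP replicate 3, followed by NP+tau replicate 2 and then NP+tau replicate 3. The core and 19S subunits lay at medians of -0.03, 1.17 and -0.10 relative to the other samples in these arrays, in the same order. A relation between the bone genes and the subunits was not tested.

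Psmc3ip, which matched the symbol pattern but is not a proteasome protein, was at 6.69, 6.73 and 6.31 in NP and at 6.21, 5.92 and 6.06 in NP+tau muscles, without overlap, and differed by -0.51 (SE 0.17, adjusted p = 0.707 by limma).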
